A study of Mus musculus with 9 samples.

Results

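The genes described here are 35 listed markers of macrophage identity and of the phagocyte's working parts: leukocyte surface proteins, Fc and complement receptors with their signalling adaptors, C-type lectins, scavenger receptors, enzymes and pore proteins that kill microbes, and the transcription factors of the myeloid lineage. They were matched by gene symbol in a table of 20467 genes, and 34 were found. Spi1, which encodes PU.1, was not found under that symbol. RefSeq gives Sfpi1 as an older symbol for it, and the values of Sfpi1 are given apart from those of the members. Emr1 is the older symbol of Adgre1, the F4/80 gene. Of the 34 members, 30 passed a filter on low counts and were tested, and Fcgr2b, Fcgr3, Mrc1 and Apoe did not.

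RNA came from RAW264.7 cells, an established mouse macrophage line, and all 9 libraries analysed came from cells given lipopolysaccharide (LPS, a component of the bacterial outer membrane) at 100 ng/ml for 2 h, so no comparison with untreated cells is made. The 3 groups had 3 libraries each, given as biological replicates: Roquin IP, RNA precipitated on protein A/G beads that carried rabbit polyclonal anti-Roquin antibodies; control IP, RNA held by the beads with no antibody added; and input, RNA of the lysate taken before precipitation. Since the control held no antibody, RNA that the antibodies hold by other means cannot be told apart from RNA held by Roquin. All libraries derive from 1 cell line.

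Macrophages take up particles through Fc receptors for antibody-coated targets, the integrin complement receptor 3, and lectin and scavenger receptors that bind microbial sugars and modified lipoproteins. Fc receptors and several lectins signal through small adaptors that carry ITAM motifs, encoded by Fcer1g and Tyrobp, and the phagosome is then loaded with lysozyme, perforin-2 and the superoxide made by the NADPH oxidase. Roquin proteins, encoded by Rc3h1 and Rc3h2, bind short stem-loops in the 3′ untranslated regions (3′ UTRs) of mRNAs, called constitutive decay elements (CDEs), and direct these mRNAs to degradation. Tnf is the best known carrier of such an element in macrophages.

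The core of a CDE can be written as TTC, then a pyrimidine, a purine and a pyrimidine, then GAA. The outer bases form the stem and the 3 middle bases the loop. This 9-base pattern was searched on the sense strand of the longest annotated 3′ UTR of each gene (GENCODE M21, mouse build GRCm38). It was found in 2 of the 35 listed genes, Msr1 and Mpeg1, and in 568 of 9447 tested genes with a 3′ UTR (6.01%). The sites are shown with those of Tnf and Nfkbid, strongly recovered in the Roquin precipitates, because the bases on either side of the pattern differ. Capitals mark the pattern, and all sites lie in the 3′ UTR part of the last exon, at chr8:39604024-39604044 (minus strand) for Msr1, chr19:12464700-12464720 (plus) for Mpeg1, chr17:35199582-35199602 (minus) for Tnf, and chr7:30428399-30428419 and chr7:30428427-30428447 (plus) for Nfkbid.
Msr1: tagttaTTCTGTGAAaacatc
Mpeg1: gctatcTTCTACGAAagatga
Tnf: catgttTTCTGTGAAaacgga
Nfkbid, first site: ggtgatTTCTGTGAAatcgag
Nfkbid, second site: gattgtTTCTGTGAAacactc
In Tnf and at both Nfkbid sites, 3 further bases on either side of the pattern can pair without a gap (A with T, G with C). In Msr1 and Mpeg1 this number is 0. The authors' deposited table puts all 34 members in its class "no CDE", as it does 20279 of all 20467 genes. A match of letters is a description and not a bound site.

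Library totals ranged from 1799390 to 12975767 reads, and the input libraries were the shallowest. Levels are in CPM, counts per 1e+06 reads of a library size scaled by TMM factors. A level of 1 CPM stood for 2.02 to 11.6 reads. Where no read was found, up to 3 counts are allowed, which is 0.258 to 1.49 CPM depending on the library. Such floors cover counting error only. The choice of scaling moved the fold changes against control IP. The median log2 fold change of all 9567 tested genes in Roquin IP over control IP was -0.12 with TMM factors and -0.96 with library size alone. Of the 34 members found, 30 passed the filter on low counts. Among the listed markers of other cell types, only the lymphocyte gene Lck passed it. Of 12 lymphocyte markers 8 had no count, and the list summed to at most 10.96 CPM in any library. No count was found for 8 of 12 neutrophil and mast cell markers, 3 of 7 fibroblast markers and 4 of 6 epithelial markers. All 6 endothelial markers had counts and summed to at most 2.44 CPM.

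In the lysate the most abundant members per length of transcript were lysozyme 2, the glycoprotein CD52 and the ITAM adaptors. Per kilobase of the longest annotated transcript, Lyz2 stood at 329 ± 224 CPM in the input (SD, n = 3, as for all values with ± here). Cd52 stood at 305 ± 116 CPM per kilobase, Tyrobp at 214 ± 126 and Fcer1g at 195 ± 87.8. The ranges of mean ± SD of these 4 levels overlapped. A middle group followed on the same scale, with Lgals3 at 115 ± 53.3, Cd68 at 106 ± 10.9, Cd53 at 103 ± 40.4 and Ncf1 at 86.3 ± 23.0 CPM per kilobase. Lower down were both chains of complement receptor 3, Itgb2 at 15.8 ± 1.39 and Itgam at 12.01 ± 7.96 CPM per kilobase, and the receptor-like protein F4/80 (Emr1) at 4.23 ± 1.90. Mrc1 and Apoe were at or near the floor, while Trem2 and Cx3cr1 stood at 36.8 ± 20.4 and 29.6 ± 14.4 CPM in the input. Mrc1, the mannose receptor, had no read in any input or control library and 3 reads in 1 Roquin library, and Apoe had 38 reads over all 9 libraries. Together the members held 0.369% ± 0.135 of all reads in the input, 0.261% ± 0.0761 in control IP and 0.173% ± 0.0462 in Roquin IP. Outside Lars2 and Tnf, the genes with the most reads, these shares were 0.586%, 0.401% and 0.290%. In the plot of levels by library, the groups overlap for most members.

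**Figure D1:**
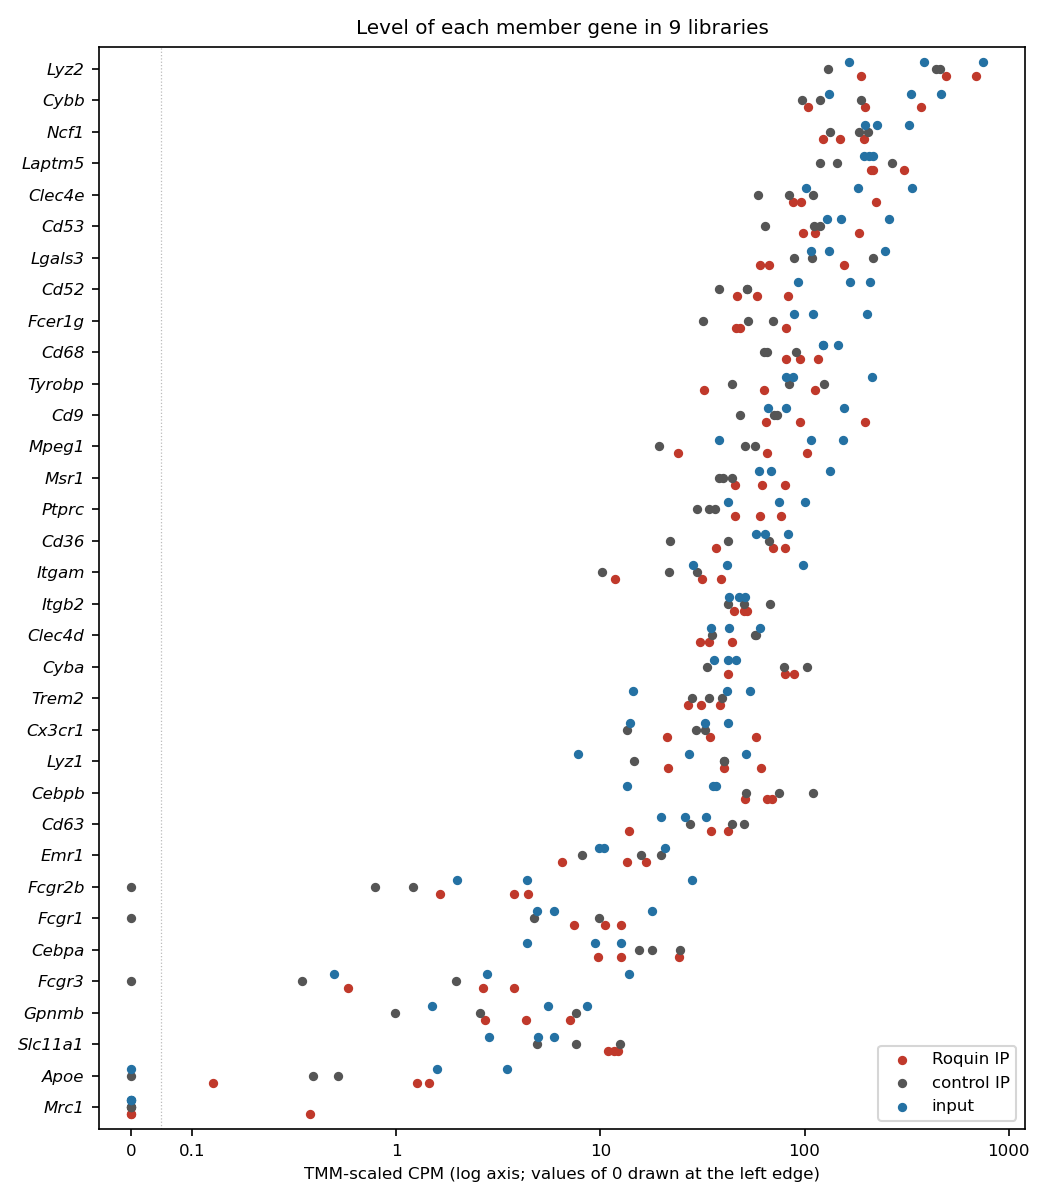
Level of the 34 members found (rows, ordered by mean input level) in TMM-scaled CPM on a log axis, 1 point per library, with values of 0 at the left edge. Lyz2 lies highest, Mrc1 and Apoe lie at or near 0, and the 3 groups overlap for most genes.

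Set against beads without antibody, the Roquin precipitates hold the mRNAs that the antibodies add. No member was called in this comparison. Of the 30 members tested, 0 were higher, where 3.76% of all genes were, and 0 were lower, where 0.0% of all genes were (edgeR quasi-likelihood test, Benjamini-Hochberg adjusted p under 0.05). With the replicate number as a block the member counts were also 0 and 0, against 5.52% and 0.115% of all genes, and DESeq2 called 0 and 0. At an unadjusted p under 0.05 there were 2 members, Ptprc and Cd9, among 963 genes in all. The same fit put Tnf at 190-fold (95% interval 74.8 to 481) and Nfkbid at 469-fold.

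The fold changes of the 30 tested members were small, and their median lay above that of all genes. Log2 fold changes ran from -0.54 (Lgals3) to 0.98 (Fcgr1), with 19 above 0 and 11 below. Their median was 0.41, against -0.12 for all genes. Under library size alone the members' median was -0.47 and 29 of 30 were below 0, while the distance from the all-gene median was 0.49, near the 0.53 with TMM factors. That distance was 0.20 without Roquin IP 2 and 0.29 without control IP 1, and at most 0.59 when other libraries were left out. The upper end of the 95% interval lay under 2-fold for 13 members and under 4-fold for 28. The highest upper end was 6.41-fold, for Fcgr1. In the authors' deposited table the linear ratio of Roquin IP to control IP ran from 0.70 to 5.07 over the 33 members with a finite value. Its median was 1.35, against 0.92 for all genes. Its p-value was 1 for all 34, as it was for 13265 of the 13759 genes with a p-value.

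**Figure D2:**
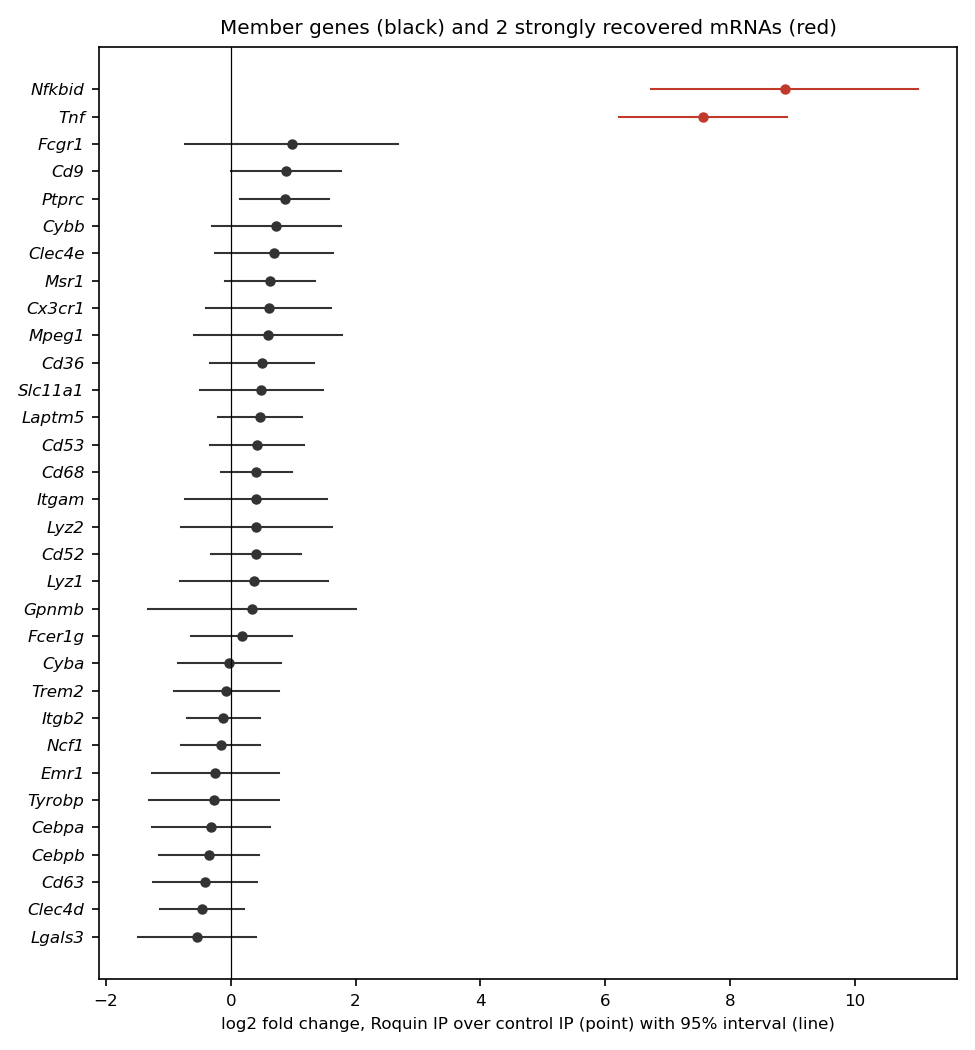
Log2 fold change of Roquin IP over control IP for the 30 tested members (black) and, for scale, Tnf and Nfkbid (red), as points with 95% intervals from the edgeR fit. The members lie between -0.54 and 0.98, far to the left of Tnf at 7.57 and Nfkbid at 8.87.

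The largest separation among leukocyte surface genes was at Ptprc, which encodes CD45, the tyrosine phosphatase of all leukocytes. It stood at 60.8, 76.7 and 45.7 CPM in Roquin IP 1, 2 and 3, at 34.1, 29.8 and 36.4 CPM in control IP, and at 101, 75.1 and 42.2 CPM in the input. Every Roquin library lay above every control library. The log2 fold change was 0.87 (SE 0.33, edgeR adjusted p = 0.317), and 0.82 with adjusted p = 0.127 under the replicate block. Cd52, a small GPI-anchored glycoprotein, stood at 58.7, 83.1 and 46.4 CPM in Roquin IP and at 52.1, 52.1 and 38.3 CPM in control IP. Those ranges overlapped, with a log2 fold change of 0.41 (SE 0.33, edgeR adjusted p = 0.754). Cd53, a leukocyte tetraspanin, stood at 98.6, 184 and 112 CPM in Roquin IP, at 64.0, 119 and 111 CPM in control IP and at 151, 260.2 and 128 CPM in the input (Roquin over control 0.42, SE 0.35, edgeR adjusted p = 0.756). Laptm5, a lysosomal membrane protein of blood cells, was level in the input at 195, 208 and 217 CPM. In Roquin IP it stood at 211, 306 and 215 CPM and in control IP at 118, 267 and 145 CPM, so the precipitates spread more than the lysates (0.47, SE 0.32, edgeR adjusted p = 0.698).

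Cd68, the macrosialin of endolysosomes, stood at 95.2, 116 and 81.3 CPM in Roquin IP, at 65.2, 90.9 and 63.5 CPM in control IP and at 123, 146 and 122 CPM in the input. Its lysate levels lay above all 6 precipitates, and Roquin IP overlapped control IP (0.41, SE 0.27, edgeR adjusted p = 0.680). Emr1 had a log2 fold change of -0.25 (SE 0.47). The tetraspanin Cd9, which organises membrane receptors, stood at 65.0, 197 and 94.7 CPM in Roquin IP against 48.4, 70.9 and 73.5 CPM in control IP. The high value was that of Roquin IP 2, and the groups overlapped (0.89, SE 0.41, edgeR adjusted p = 0.494). Cd63, a tetraspanin of late endosomes, was at 30.2 ± 14.7 CPM in Roquin IP against 40.6 ± 11.9 CPM in control IP (-0.41, SE 0.39).

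Reads of the listed Fc receptors were few in these libraries, and those of the adaptors were many. Fcgr1, the high-affinity IgG receptor, had counts of 25, 59 and 131 in the Roquin libraries, 0, 24 and 115 in the controls and 12, 15 and 36 in the lysates. Its log2 fold change of 0.98 over control IP was the highest of the 30 tested members and also the least certain (SE 0.80, edgeR adjusted p = 0.753). Control IP 1 had 0 counts for Fcgr1, Fcgr2b and Fcgr3 alike, which allows up to 0.914 CPM for each. Summed by group, the inhibitory receptor Fcgr2b had 61 counts (Roquin), 18 (control) and 84 (input), of which 69 were in input 1. The activating receptor Fcgr3 had 36, 14 and 42 counts in the same order, with 34 of the 42 in input 1. Both genes were therefore left untested by the filter, and 1 lysate held most of their input reads. Their longest transcripts are 96.5% identical over 509 bases, so reads could have been divided between them. Where the filter was dropped, their log2 fold changes in Roquin IP over control IP lay above the range of the tested members, without a call. Fcgr2b had 2.01 (SE 0.78, edgeR adjusted p = 0.212) and 2.17 with DESeq2 (adjusted p = 0.328), and Fcgr3 had 1.46 (SE 0.95, edgeR adjusted p = 0.766). Mrc1 and Apoe, also under the filter, had 2.84 (SE 1.91) and 1.34 (SE 1.29) in that unfiltered edgeR fit. On the same footing Fcgr2b was lower in control IP than in the input (log2 -3.83, edgeR adjusted p = 0.000406, and -4.00, 0.00232 with DESeq2). Without input 1 Fcgr2b passed the filter, and in that filtered fit the value was -2.02 (edgeR adjusted p = 0.301). The change from -3.83 thus mixes the loss of input 1 with the filter.

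Fcer1g, the common gamma chain of Fc receptors, stood at 46.1, 81.3 and 48.1 CPM in Roquin IP, at 31.7, 70.2 and 53.0 CPM in control IP and at 88.8, 202 and 110.1 CPM in the input. The lysate levels lay above all precipitates, and the precipitates overlapped each other (0.18, SE 0.38, edgeR adjusted p = 0.916). Tyrobp, the adaptor DAP12, stood at 32.3, 113 and 63.6 CPM in Roquin IP, 44.2, 125 and 83.5 CPM in control IP and 81.0, 214 and 88.3 CPM in the input, lowest in library 1 and highest in library 2 of each group (-0.27, SE 0.49). Its partner receptor Trem2, which binds lipids, was at 32.1 ± 5.86 CPM in Roquin IP and 34.0 ± 5.70 CPM in control IP (-0.07, SE 0.39).

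The C-type lectins Clec4e (Mincle) and Clec4d, neighbours on chromosome 6 that bind mycobacterial glycolipids, had fold changes of opposite sign. Clec4e stood at 88.1, 224 and 96.1 CPM in Roquin IP, at 59.1, 110.1 and 83.8 CPM in control IP and at 182, 335 and 102 CPM in the input (Roquin over control 0.69, SE 0.44, edgeR adjusted p = 0.675). Clec4d stood at 34.0, 44.2 and 30.9 CPM, 57.3, 35.1 and 57.6 CPM, and 42.8, 60.5 and 34.7 CPM in the same order of groups (-0.46, SE 0.32, edgeR adjusted p = 0.704). Neither difference passed the test, and the difference between the genes was not tested. No alignment between their longest transcripts was found. Galectin-3 (Lgals3), a sugar-binding protein that marks damaged lysosomes, had the lowest fold change of the 30 tested members. It stood at 60.8, 157 and 66.7 CPM in Roquin IP, 89.2, 216 and 109 CPM in control IP and 132, 249 and 108 CPM in the input, below control IP in each same-numbered pair (-0.54, SE 0.44, edgeR adjusted p = 0.753).

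Both members with the 9-base pattern had positive fold changes within the range of the others. Msr1, scavenger receptor A, stood at 62.1, 80.5 and 45.9 CPM in Roquin IP, at 39.9, 44.1 and 37.9 CPM in control IP and at 68.4, 134 and 60.0 CPM in the input. Its Roquin libraries lay above all control libraries by a narrow gap, with a log2 fold change of 0.63 (SE 0.34, edgeR adjusted p = 0.607). Mpeg1, which encodes the pore-forming perforin-2 of the phagosome, stood at 65.4, 103 and 24.0 CPM in Roquin IP and 51.2, 57.0 and 19.3 CPM in control IP (0.60, SE 0.55, edgeR adjusted p = 0.779). The upper interval ends were 2.54-fold for Msr1 and 3.46-fold for Mpeg1. Cd36, a scavenger receptor for fatty acids and oxidised lipoprotein, had no such pattern and a log2 fold change of 0.51 (SE 0.39). Ptprc and Msr1 were the only tested members whose Roquin libraries all lay above the control libraries, where 10.7% of all genes did so, and 0 members lay below, where 8.0% of all genes did. Within same-numbered pairs, 16 of 30 members were higher in Roquin IP in all 3 pairs (20.3% of all genes) and 6 were lower (26.4%). With library size alone these counts were 0 and 22, against 4.57% and 73.0% of all genes.

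Complement receptor 3 and the fractalkine receptor gave no call. Itgam, the alpha M chain, stood at 39.0, 31.4 and 11.8 CPM in Roquin IP, at 29.8, 21.8 and 10.1 CPM in control IP and at 98.5, 41.9 and 28.3 CPM in the input (Roquin over control 0.41, SE 0.53, edgeR adjusted p = 0.845). Itgb2, the shared beta chain, varied little, at 50.3, 52.0 and 44.9 CPM, 67.6, 41.9 and 50.4 CPM, and 50.9, 42.7 and 47.6 CPM in Roquin IP, control IP and input (-0.12, SE 0.27, edgeR adjusted p = 0.923). Cx3cr1 was at 37.9 ± 18.7 CPM in Roquin IP and 25.1 ± 10.2 CPM in control IP (0.61, SE 0.47).

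The genes of microbe killing included the most abundant member, Lyz2, and none passed the test between the precipitates. Lyz2 stood at 189, 691 and 491 CPM in Roquin IP, at 131, 439 and 461 CPM in control IP and at 165, 747 and 385 CPM in the input (Roquin over control 0.41, SE 0.57, edgeR adjusted p = 0.865). Its neighbour and close copy Lyz1 stood at 21.4, 61.2 and 40.3 CPM, 14.6, 40.4 and 40.1 CPM, and 7.74, 51.8 and 27.3 CPM in the same order (0.37, SE 0.56, edgeR adjusted p = 0.879). Both genes were lowest in library 1 of each group. Their longest transcripts are 95.8% identical over 1264 bases, and 16.1% of the 50-base stretches of Lyz1 also occur in Lyz2, so part of the Lyz1 count is uncertain. Lyz1 counts were 11.3%, 8.86% and 8.22% of Lyz2 counts in the Roquin libraries, 11.2%, 9.19% and 8.70% in the controls and 4.70%, 6.93% and 7.08% in the lysates. All 6 precipitates lay above the 3 lysates in this ratio, which needs no scaling between libraries. The lysate values rest on only 19, 131 and 55 Lyz1 counts, and the difference was not tested.

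The NADPH oxidase makes the superoxide of the phagosome from a membrane pair, encoded by Cybb and Cyba, and cytosolic subunits such as Ncf1. Cybb stood at 197, 373 and 104 CPM in Roquin IP, at 119, 189.9 and 97.4 CPM in control IP and at 467, 332 and 132 CPM in the input (Roquin over control 0.73, SE 0.48, edgeR adjusted p = 0.691). Cyba stood at 42.4, 89.0 and 80.6 CPM, 33.2, 79.4 and 103 CPM, and 42.4, 46.3 and 36.2 CPM in the same order (-0.02, SE 0.38, edgeR adjusted p = 0.990). Ncf1 stood at 148, 195 and 123 CPM in Roquin IP, 184, 206 and 133 CPM in control IP and 226, 323 and 197 CPM in the input (-0.16, SE 0.29, edgeR adjusted p = 0.901). All 3 genes overlapped between the precipitates. Slc11a1, a metal transporter of the phagosome, was low at 11.6 ± 0.617 CPM in Roquin IP and 8.32 ± 3.85 CPM in control IP (0.49, SE 0.46). Gpnmb, a lysosomal glycoprotein, was near the floor at 4.71 ± 2.24 and 3.72 ± 3.46 CPM (0.35, SE 0.78).

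The CCAAT/enhancer-binding transcription factors of the myeloid lineage overlapped between the precipitates. Cebpb stood at 51.2, 69.4 and 65.8 CPM in Roquin IP, at 51.8, 111 and 74.8 CPM in control IP and at 13.4, 36.8 and 35.7 CPM in the input. It was lower in Roquin IP than in control IP in each pair by an amount within the replicate spread (-0.34, SE 0.37, edgeR adjusted p = 0.814). Cebpa stood at 12.6, 9.73 and 24.2 CPM, 15.5, 17.8 and 24.5 CPM, and 12.6, 4.35 and 9.42 CPM in the same order (-0.31, SE 0.44, edgeR adjusted p = 0.869). The entry Sfpi1, the older symbol of Spi1, was at 175 ± 25.9, 197 ± 30.9 and 157 ± 52.3 CPM (-0.17, SE 0.29, edgeR adjusted p = 0.894).

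Against the lysate, the member that moved was Cd52, on chromosome 4 (GRCm38, 134082448 to 134095082, minus strand), and it was lower in both precipitates. Cd52 stood at 167, 210.4 and 92.7 CPM in the input, above all 6 precipitates. Relative to the input, the log2 fold change was -1.32 in Roquin IP (SE 0.34, 95% interval -2.04 to -0.60, edgeR adjusted p = 0.0273) and -1.73 in control IP (SE 0.34, edgeR adjusted p = 0.0319). Both comparisons use the same input libraries. In Roquin IP over input, Cd52 was the 1 member of 30 called lower, where 2.79% of all genes were, and 0 were called higher, where 5.45% were. In control IP over input it was again 1 lower (0.303% of all genes) and 0 higher (0.815%). The call over input in Roquin IP ended without Roquin IP 1 (edgeR adjusted p = 0.115), Roquin IP 3 (0.130), input 1 (0.0761) or input 2 (0.121). In control IP it ended in the fit on those 6 libraries alone (0.0750). It also ended when input 1 (0.110), input 2 (0.113), control IP 2 (0.104), control IP 3 (0.0902) or Roquin IP 1 (0.0568) was left out. The annotation places Crybg2 over Cd52 on the opposite strand, and the sources used here do not say whether counting used strand. Cd52 is not alone in this. Other members overlap annotated genes too, among them Cebpb (Tmem189), Cyba (Gm20388) and Ncf1 (Gtf2ird2) on the opposite strand and Itgam (Gm49368) on the same strand.

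The replicate numbers were taken to pair the libraries, which the labels do not state. Between control IP and input, deviations from the group means correlated at only 0.170, 0.152 and 0.327 for numbers 1, 2 and 3. In the 6 libraries outside Roquin IP, the number passed for 0 of 30 members and 0.0219% of all genes. The blocked calls in control IP over input rest on this pairing. With the number as a block more members passed. In Roquin IP over input 6 were lower, Cd52, Fcer1g, Itgam, Lgals3, Ncf1 and Tyrobp (8.04% of all genes), and Cebpb was higher (9.99% of all genes; log2 1.20, SE 0.26, edgeR adjusted p = 0.00627). In control IP over input 10 were lower in the blocked fit, Cd52, Cd53, Cd68, Clec4e, Cybb, Fcer1g, Itgam, Mpeg1, Msr1 and Ptprc (5.78% of all genes), and Cebpb was higher (6.65%; SE 0.26, 0.00480). Fcer1g shows how the block acted: its log2 fold change in control IP over input was -1.37 without the block (SE 0.38, edgeR adjusted p = 0.0777) and -1.34 with it (SE 0.21, 0.00346). Cebpb had 1.47 (SE 0.39, 0.0668) without the block in the same comparison. The members' median log2 fold change over input was -0.54 in control IP and -0.20 in Roquin IP, against 0.02 and -0.01 for all genes. Input levels did not overlap with control IP for 8 members: Cebpa and Cebpb were higher in control IP (12.2% of all genes) and Cd52, Cd53, Cd68, Fcer1g, Msr1 and Ptprc lower (10.8%). Against Roquin IP, Cebpb and Slc11a1 were higher in the precipitate (16.5%) and Cd52, Cd68, Fcer1g and Ncf1 lower (14.3%). Within same-numbered pairs, Roquin IP lay above the input in all 3 for 4 members (29.0% of all genes) and below for 12 (26.8%), and control IP lay above for 3 (23.1%) and below for 14 (21.1%). With library size alone Roquin IP lay above the input for 0 and below for 20 (6.94% and 59.1% of all genes), and control IP above for 3 and below for 9 (26.2% and 16.4%).

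**Figure D3:**
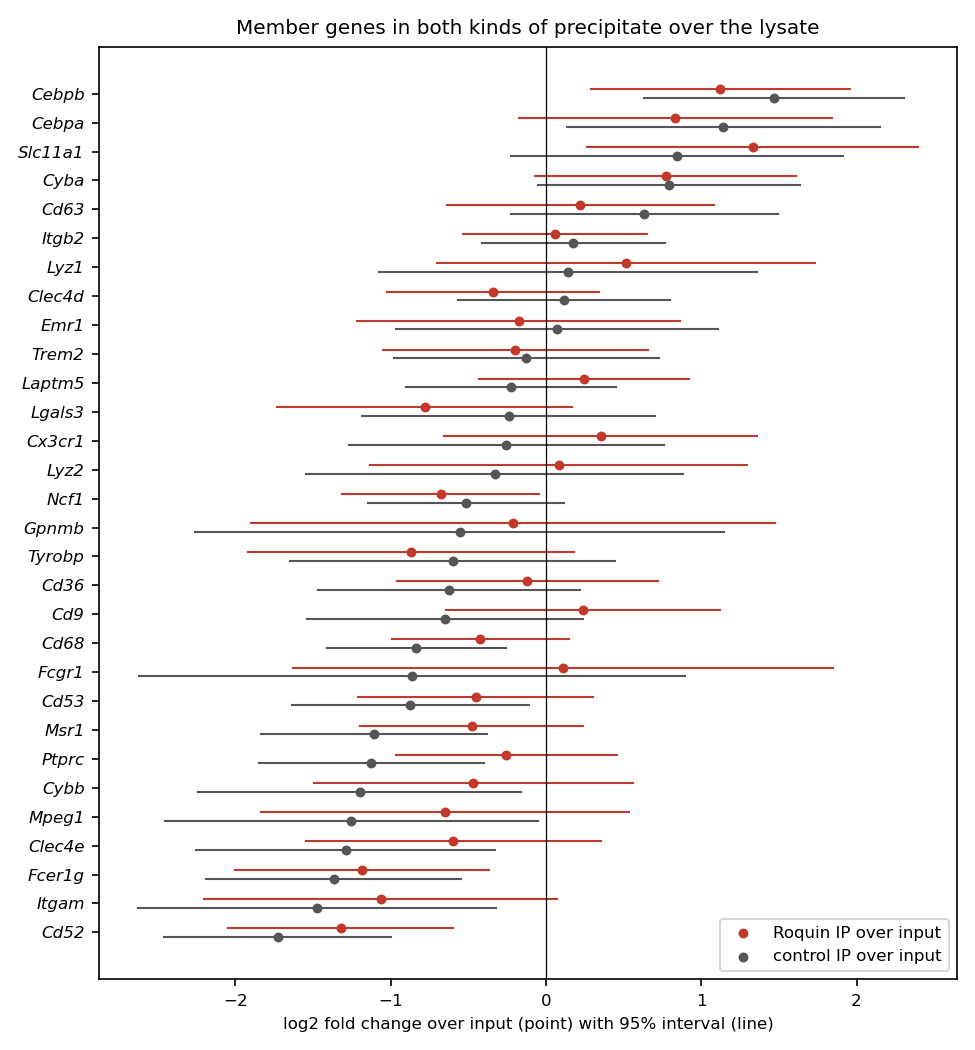
Log2 fold change over input of the 30 tested members in Roquin IP (red) and control IP (grey), as points with 95% intervals, ordered by the value in control IP; both sets share the input libraries. Cebpb lies at the top, at 1.12 and 1.47, and Cd52 at the bottom, at -1.32 and -1.73.

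Ratios between partner genes within a library need no scaling. Apart from Lyz1 against Lyz2, the lysates and the precipitates overlapped in range, and the values are given by replicate number. Cyba counts were 9.07%, 13.9% and 27.3% of Cybb counts in input 1, 2 and 3, 21.5%, 23.8% and 77.8% in Roquin IP and 27.9%, 41.8% and 105% in control IP. Within each replicate number the order was the same: lowest in the input, higher in Roquin IP and highest in control IP. Itgb2 counts per Itgam count followed this order too, at 0.517, 1.02 and 1.68 in the input, 1.29, 1.66 and 3.80 in Roquin IP and 2.27, 1.93 and 4.97 in control IP. For Clec4d against Clec4e the percentages were 23.5, 18.1 and 34.1 in the input, 38.6, 19.7 and 32.1 in Roquin IP and 96.9, 31.9 and 68.7 in control IP, highest in control IP for each number. Cebpa against Cebpb showed no such order, at 93.9%, 11.8% and 26.4% in the input, 14.03% to 36.8% in Roquin IP and 16.1% to 32.8% in control IP. These ratios were not tested.

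GC content of the transcript moved with the difference between control IP and input. Cebpb (67.2% GC in the longest transcript), Cebpa (62.6%) and Cyba (59.3%) were among the members with positive values, and Msr1 and Cd36 (38.4% each) among those with negative values. Across the 30 tested members the correlation of GC with the log2 fold change was r = 0.61 (Spearman's rho 0.55), and 0.43 (rho 0.44) across all genes. For Roquin IP over control IP it was -0.49 (rho -0.50) across members and -0.17 (rho -0.20) across all genes. Genes share the same 9 libraries and are not independent replicates, so these values are descriptions. The part of GC content in the results was not tested.

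**Figure D4:**
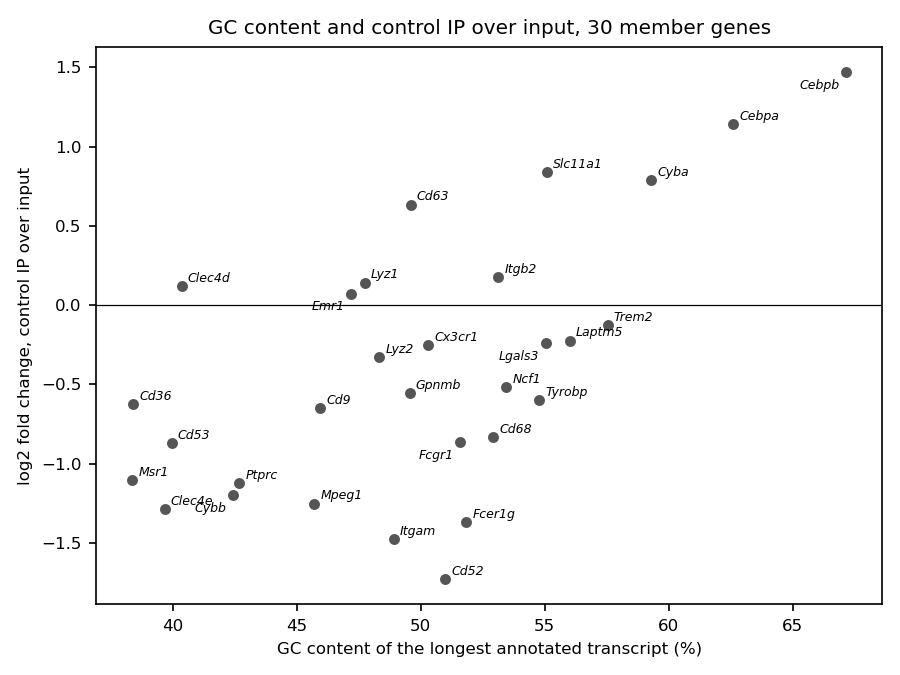
Log2 fold change of control IP over input (y axis) against the GC content of the longest annotated transcript in percent (x axis), 1 point per tested member. The points rise from Msr1 at 38.4% GC and a log2 value of -1.11 to Cebpb at 67.2% and 1.47, while Cd52, at 51.0% GC, lies lowest at -1.73.

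In the fit of all 9 libraries, lysozymes, ITAM adaptors, perforin-2 and other members differed with the replicate number. In a fit with group and number, 11 of 30 members passed for the number (edgeR adjusted p under 0.05), where 8.99% of all genes did: Lyz2, Mpeg1, Tyrobp, Lgals3, Itgam, Lyz1, Fcer1g, Cx3cr1, Clec4e, Cybb and Cd9. Lyz2 differed most clearly, with a log2 difference of 1.95 between numbers 2 and 1 and 1.49 between 3 and 1 (edgeR adjusted p = 0.00175). Lyz1 gave 1.86 and 1.35 (0.00871), Tyrobp 1.56 and 0.68 (0.00524) and Lgals3 1.18 and 0.04 (0.00538). Mpeg1 and Itgam had another order: Mpeg1 gave 0.09 and -1.64 (edgeR adjusted p = 0.00346) and Itgam -0.66 and -1.71 (0.00750), both lowest in library 3 of every group.

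This result rested on the Roquin libraries, since no member passed for the number without them. Leaving out 1 library at a time gave 5 to 16 members, with 5 without Roquin IP 3 (2.2% of all genes) and 16 without input 1 (12.8% of all genes). With the 6 libraries outside Roquin IP there were 0 members among 2 genes called of 9117 (0.0219%), with those outside control IP 14 (5.64% of all genes), and with those outside the input 6 (2.89%). Scaling by library size alone gave 11 (8.8% of all genes). The labels name the replicates as biological and do not say what a number shares, and the cause was not tested. The plot by replicate number gives the value of each library.

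**Figure D5:**
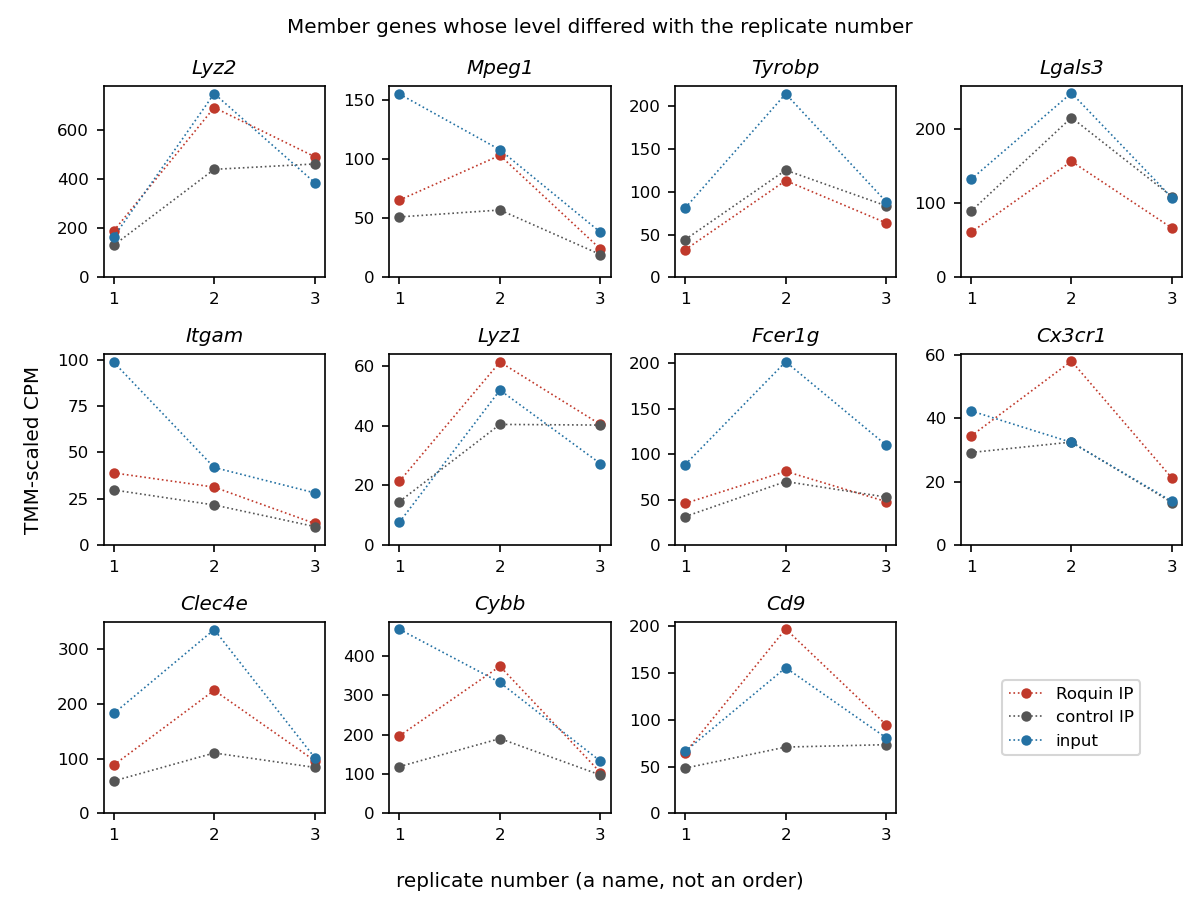
TMM-scaled CPM (y axes starting at 0) of the 11 members that differed with the replicate number in the fit of all 9 libraries. Values are drawn against that number for Roquin IP (red), control IP (grey) and input (blue), 1 point per library. Dotted lines join libraries of a group and imply no order. Lyz2, Lyz1 and Tyrobp are lowest in number 1 of each group, and Mpeg1 and Itgam are lowest in number 3.

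Among other genes of the same pathways a few were called in Roquin IP over control IP. Lists of 158 further genes (other oxidase subunits, Fc receptor and ITAM signalling, leukocyte integrins, scavenger receptors, C-type lectins, tetraspanins, myeloid transcription factors, lysosomal genes and other macrophage genes) had 155 in the table and 105 tested. In Roquin IP over control IP 5 of the 105 were higher and 0 lower, where 3.76% and 0.0% of all genes were. With the replicate block 7 were higher and 0 lower, against 5.52% and 0.115% of all genes. These shares are near those of all genes. The median log2 fold change was 0.30, against -0.12 for all genes. Hcst, which encodes DAP10, an adaptor that like DAP12 serves activating receptors, had counts of 69, 257 and 335 in the Roquin libraries, 8, 20 and 44 in the controls and 8, 8 and 7 in the lysates. Its groups were far apart, with a log2 fold change of 3.18 over control IP (SE 0.38, edgeR adjusted p = 6.63e-05). Hcst lies on chromosome 7 between the member Tyrobp and Nfkbid, 126 bases from the end of Tyrobp and 1877 bases from the start of Nfkbid (GRCm38), and on the other strand from both. Its counts were 0.0712%, 0.0675% and 0.0515% of those of Nfkbid in the Roquin libraries and 2.12%, 4.01% and 3.43% in the controls. The part that reads from Nfkbid have in the Hcst counts was not tested. Tyrobp, on the other side, had 77, 894 and 657 counts in the Roquin libraries and 145, 639 and 972 in the controls. Tyro3, a receptor for apoptotic cells, had 21, 38 and 60 counts in the Roquin libraries against 0, 2 and 1 in control IP (edgeR adjusted p = 0.00429). The transcription factors Bhlhe40 (log2 2.58, SE 0.37, edgeR adjusted p = 0.000451) and Runx1 (1.13, SE 0.29, 0.0428) were higher too.

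By list, the calls in Roquin IP over control IP were 1 of 17 in Fc receptor and ITAM signalling, 1 of 7 scavenger receptors and 2 of 12 transcription factors. There were 0 of 7 oxidase genes, 0 of 9 integrin genes, 0 of 6 lectins, 0 of 11 tetraspanins and 0 of 20 other macrophage genes. Over the input, Roquin IP had 4 of the 105 higher (Hcst, Tyro3, Bhlhe40 and Runx1) and 5 lower (Ptpn6, Fermt3, Tln1, Nfe2l2 and Lcp1), where 5.45% and 2.79% of all genes were, and 7 and 12 with the replicate block (9.99% and 8.04%). Control IP had 0 and 0 over the input (0.815% and 0.303% of all genes), and 4 and 14 with the block (6.65% and 5.78%). In the fit with both terms, 18 of the 105 differed with the replicate number, where 8.99% of all genes did.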

How the data were processed

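RNA-seq counts of 34 member genes were taken from 1 table of the whole series with 9 libraries, 3 in each group. Per the file headers, the deposited values are raw counts of reads per gene, a ratio (Roquin over control) and a p-value. The deposited ratio is headed as log2 but is linear, since none is negative. The sources used here do not say if the authors' p-value was adjusted. The authors' prediction of a CDE is a text class. The submitters' processing notes name DESeq 1.8.3, BWA and CASAVA 1.8.2. The sources used here do not give the build, annotation or strand use. Entries without a symbol (7480 of 27947) were not used, and 0 columns of sample values were left out.

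Counts were fitted with edgeR 4.0.16 in R 4.3.3 (TMM factors, filterByExpr with a minimum count of 10, quasi-likelihood F test, all 9 libraries, group as the only term). The 9567 genes left were adjusted together by the Benjamini-Hochberg method, with a threshold of 0.05, and the common biological coefficient of variation was 0.350. The test was tried on simulated data first. Alternatives were DESeq2 1.42.0, RLE factors, library size alone, no filter, only the 6 libraries compared, the replicate block and leaving out each library. The replicate numbers come from the sample titles. Deviations from the group means correlated at 0.152 to 0.580 in all 9 same-numbered pairs and at -0.433 to -0.0185 between other numbers. The deviations of a group sum to 0, so the negative values follow in part from the positive ones and are not separate evidence. From the same-numbered values, the numbers were taken to pair the libraries. Where the labels do not say how replicates were separated, p-values measure only the spread between these libraries. The test of the replicate number was added after the data were seen. Shares, ratios and correlations were given no test.

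Transcript length, GC content, 3′ UTRs and positions are from GENCODE M21 on GRCm38, and transcripts were aligned with blastn 2.17.0. Full values are given for members called in a comparison, those with the highest and lowest fold change over control IP, the 10 with the highest mean CPM in the input, and partner pairs. Pathway genes are named where called in Roquin IP over control IP. The members, the lists and the tests were chosen with earlier results of these data known. Of the called genes in the lists of further pathway genes, 1 is not reported here.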

Additional observations from a re-analysis of the deposited data

How the results depend on the processing

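In Roquin IP over control IP, the count of members higher stayed at 0 under all alternatives run. The count lower was 0 except with library size alone (6 of 30, against 3708 of all 9567 genes). These 6 were Itgb2, Clec4d, Cd63, Ncf1, Lgals3 and Cebpb. In the counts that follow, the number in brackets is the count of all genes called. In Roquin IP over input, members lower numbered 2 with DESeq2 (523), 14 with library size alone (2668), 2 with no filter (416) and 6 with the replicate block (769). They numbered 0 to 2 when 1 library was left out (30 to 452). Members higher numbered 1 with DESeq2 (705), with no filter (684) and with the replicate block (956). In control IP over input, members lower numbered 6 with DESeq2 (347), 9 with no filter (229), 10 with the replicate block (553) and 0 with the 6 libraries compared (1). They numbered 0 to 1 when 1 library was left out (0 to 86). Members higher numbered 1 with DESeq2 (363), no filter (335) and the replicate block (636), and 0 to 1 when 1 library was left out (0 to 185). The filtered edgeR fits on all 9 libraries tested 9567 genes. The number tested differed in the other fits. The members' shares of reads were 0.290%, 0.401% and 0.586% outside Lars2 and Tnf. The cause of these shifts was not tested. Over all genes, Roquin IP over control IP gave 360 higher and 0 lower, with 5 lower in DESeq2, 11 with the replicate block, 21 with no filter, 3 without control IP 3 and 3708 with library size alone. Roquin IP over input gave 521 and 267, with 259 and 2668 for library size alone, 956 and 769 for the block, 523 lower in DESeq2 and 416 with no filter. Without 1 library, 298 or more were higher and 30 to 452 lower. Control IP over input gave 78 and 29, with 363 and 347 in DESeq2, 335 and 229 with no filter, 636 and 553 with the block, 2 and 1 with the 6 libraries, 10 lower with library size alone, and 0 to 185 higher and 0 to 86 lower without 1 library. No called value changed sign. With library size alone, 18 of 30 members changed sign in Roquin IP over control IP and 8 in Roquin IP over input, none of them called with TMM factors. Fcgr2b, Fcgr3, Mrc1 and Apoe had too few counts to pass the filter in the fit of all 9 libraries, and the cause was not tested.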
